A study of Caenorhabditis elegans with 2 samples.

Results

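The RAS to MPK-1 pathway genes described here are 9 Caenorhabditis elegans genes that have been tied to the function of the transcription factor EFL-1 in oogenesis. They were taken by name, and all 9 were found among 19973 nuclear protein-coding genes. By role they are let-60 (RAS), lin-45 (RAF), ksr-1 and ksr-2 (kinase scaffolds), mek-2 (MEK), mpk-1 (ERK), gap-1 and gap-3 (RAS GTPase-activating proteins) and lip-1 (a MAP kinase phosphatase). EFL-1 binding was measured by chromatin immunoprecipitation and sequencing (ChIP-seq) in whole young adult hermaphrodites of the transgenic strain YL478, a line in which EFL-1 is fused at its C-terminal end to GFP-FLAG. The immunoprecipitation used an anti-GFP antibody by the sample description, while the antibody label itself names efl-1, and chromatin was sheared by sonication. There was 1 group of 2 biological replicates with 1 technical replicate each. The files therefore hold no contrast between genotypes, treatments or ages, and the control experiment named in the labels was not analysed here.

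In the worm germ line, LET-60 RAS activates LIN-45 RAF, which phosphorylates MEK-2, which in turn phosphorylates MPK-1. Active MPK-1 is needed for germ cells to leave pachytene and for oocytes to grow and mature. KSR proteins hold the kinases together, RasGAPs return LET-60 to its inactive GDP-bound form, and LIP-1 removes the activating phosphates from MPK-1. EFL-1 is an E2F-family factor that binds DNA with its partner DPL-1, and DPL-1 has been linked to lip-1 expression in germ cells. Chromatin of whole animals mixes germ line and soma, so strong binding in few cells and weak binding in many cells cannot be told apart.

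EFL-1 peaks stood at the promoters of 2 of the 9 genes, lip-1 and gap-3, both of which encode inhibitors of the pathway. This is 22.2% of the pathway genes, against 11.0% of all protein-coding genes. By role, 2 of 3 inhibitor genes had a promoter peak and 0 of 6 genes for RAS, the kinases and the scaffolds had one. A count of 0 of 6 is close to what the 11.0% share of all genes gives, and the split by role was not tested. The RasGAP gene gap-2, which is not among the 9, had no promoter peak. A promoter peak is a peak of the authors' optimal list whose summit, the position of highest signal, lies within 500 bp of an annotated transcript start of the gene. That list holds the peaks that passed the authors' reproducibility threshold, 2802 of them on the nuclear chromosomes. The joint list, called on both replicates together, reaches further down to 29975 nuclear regions, background included, and its strongest 2802 are the optimal peaks. In the joint list, 6 of the 9 genes (66.7%) had a region within 500 bp of a start site, against 35.5% of all genes. Of these 6, 4 had only a region below the optimal threshold (let-60, lin-45, ksr-2 and mpk-1), and gap-1, ksr-1 and mek-2 had none. The shares were not matched for the number of start sites per gene, which is 6 at lin-45 and 3 at mpk-1.

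The signal value of a region is the authors' own number on a scale not given in the sources used here, so it ranks regions within a list and is not a level of binding per gene. The weakest optimal peak had a signal of 40.1 and the median optimal peak 78.4. The lowest signal listed was 7.02 in the joint list, 4.16 in the replicate 1 list and 4.05 in the replicate 2 list. The signal at rank 2802, the number of optimal peaks, was 24.7 in replicate 1 and 20.2 in replicate 2. A gene with no listed region was therefore not measured as zero, and read depth is not known from these files.

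**Figure D1:**
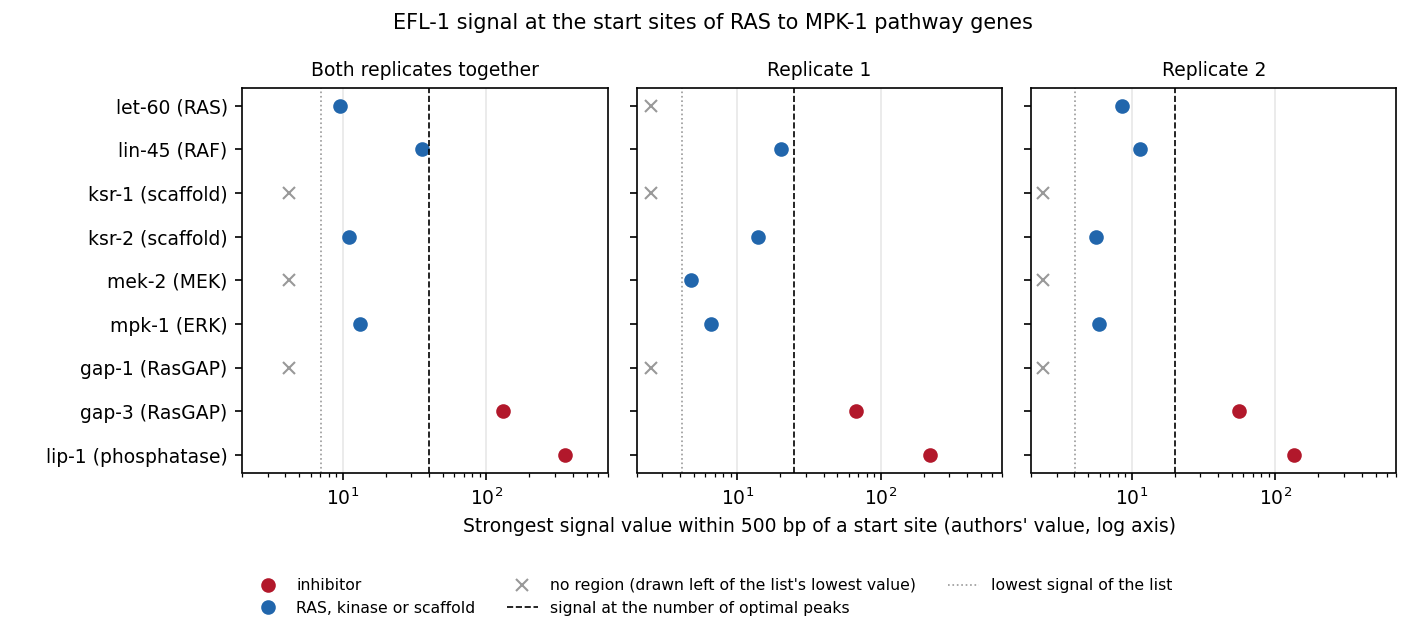
Strongest signal within 500 bp of a start site (log axis, authors' value) for each of the 9 genes in the joint list, replicate 1 and replicate 2, with inhibitors in red and RAS, kinases and scaffolds in blue. Crosses mark genes with no region, the dotted line is the lowest signal of each list and the dashed line its signal at rank 2802. The points of lip-1 and gap-3 lie right of the dashed line in all 3 panels and lin-45 lies left of it, at 35.7 in the joint list against 40.1.

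lip-1 (WBGene00003043, build ce11, which is WBcel235, chromosome IV 6842958 to 6846011, plus strand) had the strongest peak of the 9 genes. Its protein is the dual-specificity phosphatase that inactivates MPK-1. The peak lies in intergenic DNA upstream of the gene at chrIV:6842560-6842788. The whole peak is shown because it carries 1 match to an E2F core, with a second kind of element beside it. It was read from the WBcel235 genome on the plus strand, the strand of the gene. Capitals mark matches to an E2F core (TTCCCGC or TTGGCGC or TTCGCGC or TTGCCGC on either strand) or to a cell cycle genes homology region, CHR (TTTGAA or TTCGAA on either strand). E2F cores are the letters that E2F and DP dimers are known to bind, and the CHR is bound by the MuvB proteins that join EFL-1 and DPL-1 in the DRM complex.
lip-1 peak: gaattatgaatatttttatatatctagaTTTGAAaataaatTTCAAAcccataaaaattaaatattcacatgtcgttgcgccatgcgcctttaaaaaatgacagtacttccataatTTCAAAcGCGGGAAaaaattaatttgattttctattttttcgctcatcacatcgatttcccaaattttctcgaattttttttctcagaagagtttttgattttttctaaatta

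The lip-1 peak had a signal of 354 in the joint calling, rank 236 of the 2802 optimal peaks. In the replicate lists the signal was 220 in replicate 1, rank 201, and 134 in replicate 2, rank 298. The peak stood above the signal at rank 2802 in both replicates. The replicate 1 to replicate 2 ratio of 1.64 exceeded that of 74.9% of the 2765 optimal peaks with a region in both lists, for which the median ratio was 1.21 (quartiles 0.908 to 1.64). The summits were called at 6842670 in replicate 1 and 6842669 in replicate 2, 1 bp apart. The median distance between replicate summits was 20 bp over the optimal peaks, and 17.2% of peaks had summits within 5 bp.

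The lip-1 summit lies 288 bp upstream of the outermost of 2 annotated start sites, so lip-1 would have no promoter peak under a window of 200 bp, whereas gap-3 would keep its own. No other protein-coding gene starts within 500 bp of it. The nearest gene upstream, H20E11.1, is 9494 bp away from lip-1, and the nearest downstream, R13H7.2, is 54 bp past its end with no promoter peak. Among the 2193 genes with a promoter peak, lip-1 ranked 270, with 12.3% of them above it. The median signal of those genes was 93.6, with quartiles of 59.4 and 175. The genes next to lip-1 in that order were gmn-1, which encodes geminin, at 354.4, and mes-2, which encodes a Polycomb-group histone methyltransferase of the germ line, at 352.7. Their summits lie 129 bp and 131 bp upstream of a start site, nearer than that of lip-1.

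The E2F core of the lip-1 peak reads TTCCCGC on the strand opposite to the gene, at 6842683 to 6842689, and its centre lies 16 bp from the summit. The peak holds 3 CHR matches, and the one at 6842676 to 6842681 is separated from the E2F core by 1 base. The other CHR matches lie 80 bp and 67 bp from the summit. Within 100 bp of the summit, an E2F core occurred in 29.7% of the 2802 optimal peaks and in 9.76% of the 27173 other joint regions. The nearest core lay a median of 21 bp from the summit in the 832 optimal peaks that had one. A CHR occurred in 58.7% of optimal peaks and in 50.2% of the other joint regions, and both motifs occurred in 19.0% of optimal peaks (533). An E2F core with a CHR at most 4 bases away, a feature chosen after the lip-1 sequence was read, occurred in 165 optimal peaks (5.89%). The lip-1 peak is poor in G and C, at 26.2% of its bases against a median of 37.7% for optimal peaks. A match describes the letters and is not a mapped binding site.

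Inside lip-1, 4 joint regions fell below the optimal threshold, at signals of 13.9, 14.6, 7.89 and 25.98. The strongest of them lies in an untranslated exon 540 bp before the gene end, at rank 4773. It had signals of 13.7 in replicate 1 and 10.3 in replicate 2. In all lists the regions within the gene were weaker than the upstream peak.

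**Figure D2:**
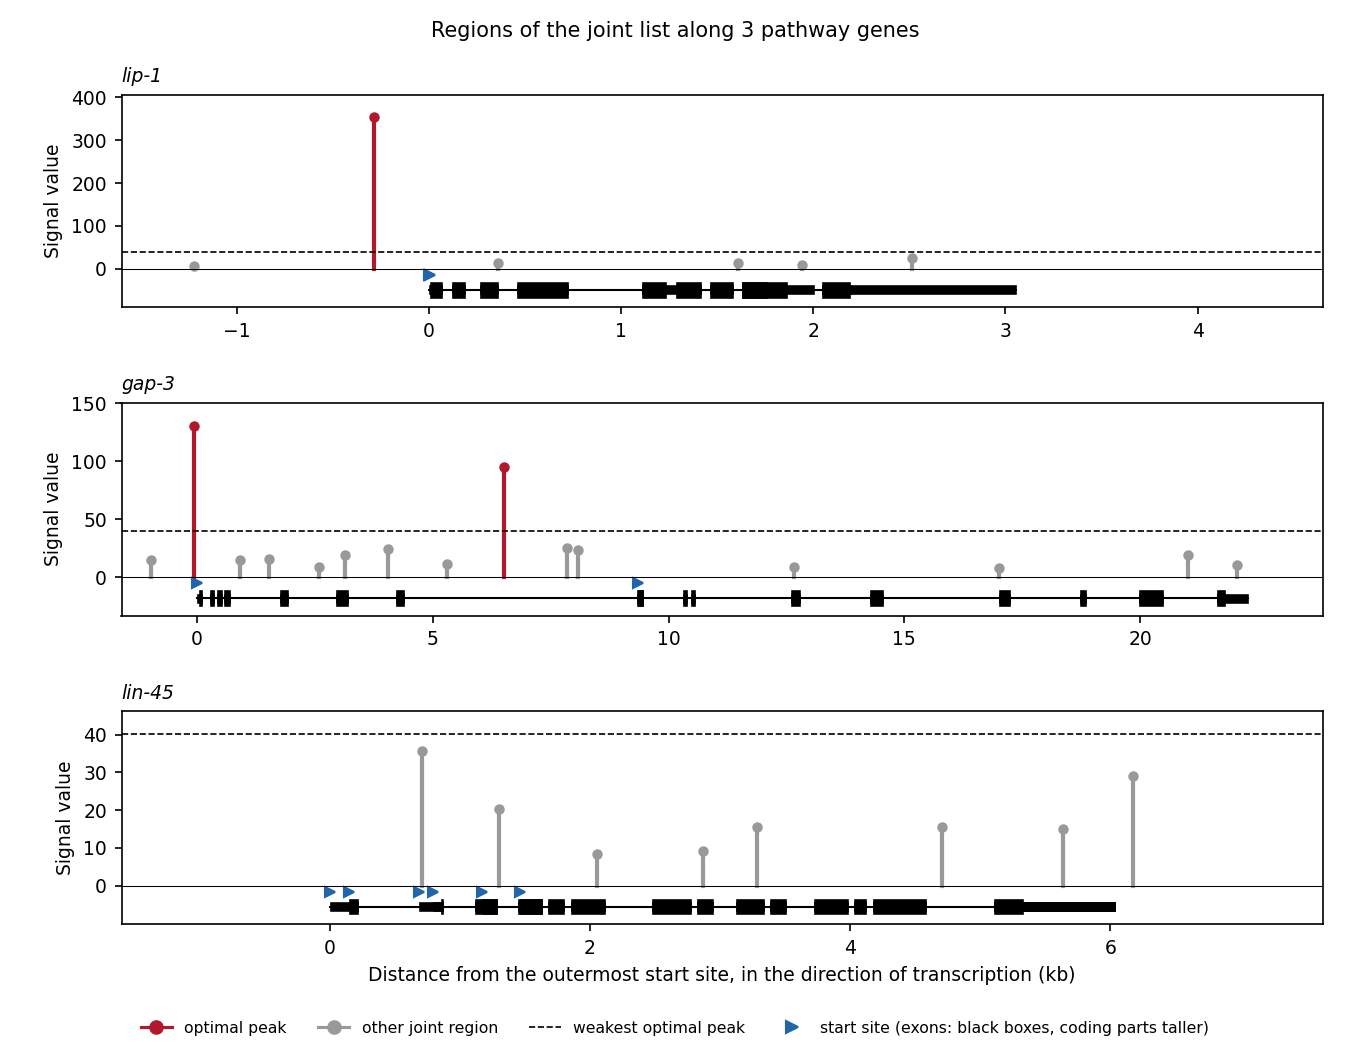
Signal (authors' value) of every joint region along lip-1, gap-3 and lin-45, against distance from the outermost start site in the direction of transcription (kb). Red stems are optimal peaks, grey stems other joint regions, arrowheads start sites, boxes exons with coding parts taller, and the dashed line is the weakest optimal peak at 40.1. The upstream peak of lip-1 stands alone at 354, gap-3 has 1 peak at its start and another 6505 bp inside the gene, and the regions of lin-45 all stay under the dashed line.

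gap-3 (WBGene00021238, chromosome I 1988246 to 2010525, minus strand) had the second promoter peak of the 9 genes. It encodes a RasGAP that acts on LET-60 mainly in the germ line. The peak spans 2010490 to 2010671 in intergenic DNA, and its summit lies 64 bp upstream of the outermost start. It had a signal of 130.7, rank 782 in the joint list, with 67.6 in replicate 1, rank 854, and 56.1 in replicate 2, rank 848. Both replicates thus placed it at nearly the same rank, above their signal at rank 2802. The replicate ratio was 1.21, with 49.7% of optimal peaks lower, and the summits lay 21 bp apart. No other gene starts within 500 bp of the summit, and the nearest gene upstream, crtc-1, is 15791 bp away.

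Among genes with a promoter peak gap-3 ranked 800, with 36.4% above it. Its signal lay between the median and the upper quartile of those genes. Its neighbours in that order were F26F2.7 at 130.735 and hmg-12, which encodes a high mobility group protein, at 130.595, so these 3 genes hardly differ in signal. The ordering of lip-1 above gap-3 held in both replicates.

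A second optimal peak lies in an intron of gap-3, with its summit at 2004020, and is not a promoter peak by the 500 bp rule. It lies 6505 bp downstream of the outermost start and 2839 bp upstream of the internal start site at 2001181. Its signal was 94.6, rank 1128 in the joint list, with 53.4 in replicate 1, rank 1157, and 31.5 in replicate 2, rank 1671. Like the promoter peak, it passed the signal at rank 2802 in both replicates, with the lower rank in replicate 2. gap-3 is 22280 bp long, and 14 joint regions lay between 500 bp upstream of its start and its end. The other 12 had signals between 7.998 and 25.6. No E2F core was found within 100 bp of either summit, unlike at lip-1. The promoter peak held 2 CHR matches, 40 bp and 35 bp from the summit, and the intronic peak held none. The promoter peak was 32.4% G and C.

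**Figure D3:**
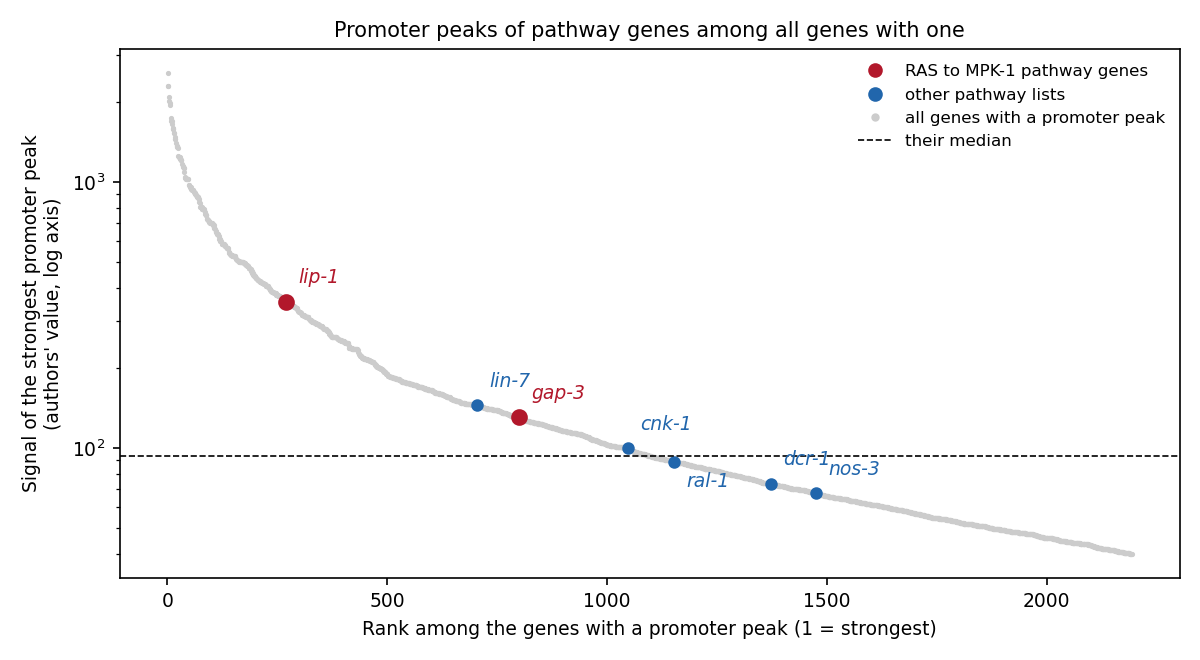
Signal of the strongest promoter peak (authors' value, log axis) against its rank for all 2193 genes with a promoter peak (grey), with the pathway genes in red, genes of the other pathway lists in blue and the median of 93.6 as a dashed line. lip-1 stands at rank 270 and gap-3 at rank 800, both above the median.

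gap-1 (WBGene00001515, chromosome X 2192504 to 2195348, plus strand), the third inhibitor gene, encodes the RasGAP best known from vulval induction. No region of any list fell between 500 bp upstream of its start and its end. The nearest optimal peak lay 66138 bp from its start site, at a signal of 90.7. The scaffold gene ksr-1 is also on the X chromosome. Peaks were rare on that chromosome as a whole. A promoter peak was found at 1.17% of the 2731 X-linked genes, against 12.5% of the 17242 autosomal genes. A joint region within 500 bp of a start was found at 11.4% of X-linked genes and 39.4% of autosomal genes. The 7 autosomal pathway genes include 2 with a promoter peak (28.6%) and 6 with a joint region near a start (85.7%).

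let-60 (WBGene00002335, chromosome IV 11688227 to 11691088, minus strand) encodes the RAS GTPase at the head of the cascade and had no promoter peak. Its single joint region within 500 bp had a signal of 9.52, rank 21660, and its summit lay 474 bp upstream. Replicate 1 listed no region there, and replicate 2 listed one at 8.62, rank 10901. The joint signal of 9.52 is below 15.02, the median signal of all genes with only a joint region. The 3 joint regions inside the gene reached at most 10.6.

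lin-45 (WBGene00003030, chromosome IV 6742537 to 6748572, minus strand), which encodes RAF, came nearest to the threshold among the genes without a promoter peak. Its region at chrIV:6747720-6748009 has its summit 18 bp downstream of the start site at 6747883, one of 6 annotated starts, and 707 bp inside the outermost one. The part of this region outside exons is shown because it carries the only E2F core found within 100 bp of the strongest summit in the genes without a promoter peak. It is chrIV:6747884-6748009, read from the WBcel235 genome on the minus strand, the strand of the gene. Capitals mark a CHR (TTTGAA) and, nearer the start site, an E2F core that reads TTCGCGC on the opposite strand.
lin-45 region: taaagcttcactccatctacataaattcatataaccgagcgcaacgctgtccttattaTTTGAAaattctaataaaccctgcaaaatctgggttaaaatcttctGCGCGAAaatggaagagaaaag

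The lin-45 region had a signal of 35.7 in the joint list, rank 3203, against 40.1 for the weakest optimal peak. Its −log10 q-value of 3.88 equals that of the optimal peaks, a value shared by 3748 nuclear joint regions. Replicate 1 gave 20.3, rank 3602, and replicate 2 gave 11.4, rank 6730. Neither replicate placed it within its strongest 2802 regions, and its ratio of 1.78 and summit distance of 40 bp were both above the medians of the optimal peaks. The centre of the E2F core lies 37 bp from the joint summit and the CHR 83 bp. A second joint region, 130 bp from another start site, had a signal of 20.4 and rank 6800. The nearest optimal peak lay 8069 bp from the nearest start of lin-45.

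**Figure D4:**
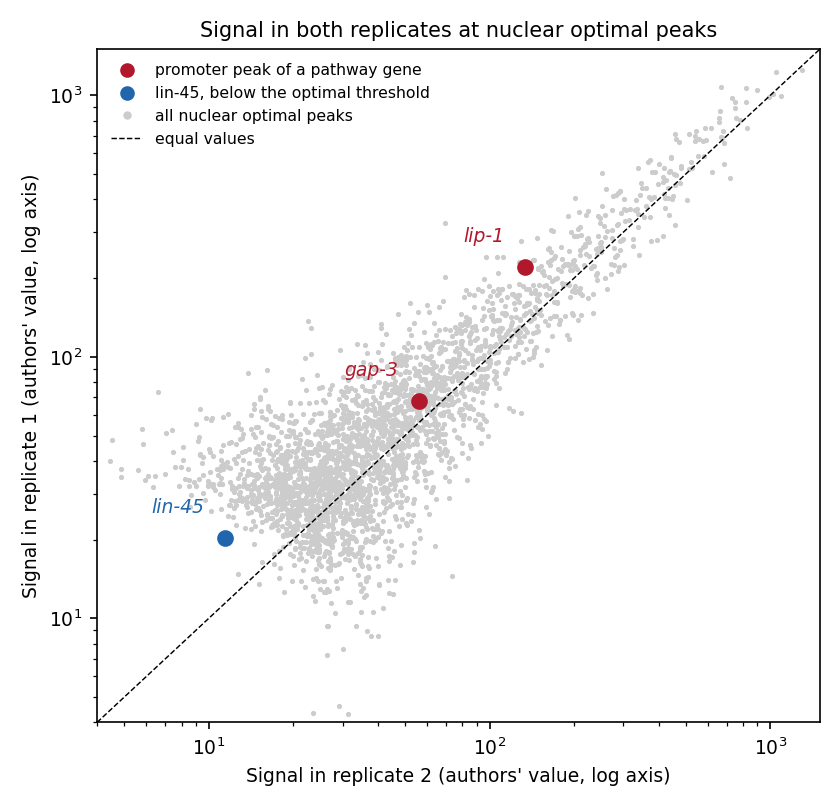
Signal in replicate 1 against signal in replicate 2 (authors' values, log axes) for nuclear optimal peaks with a region in both lists (grey), with the promoter peaks of lip-1 and gap-3 in red and the lin-45 region in blue. lip-1 lies at 220 and 134, gap-3 at 67.6 and 56.1, and lin-45 at 20.3 and 11.4, toward the lower left edge of the optimal peaks.

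The scaffold genes differed in what was listed near their starts. ksr-2 (WBGene00002240, chromosome I 12047342 to 12059798, minus strand), the paralogue needed in the germ line, had 4 joint regions within 500 bp of its 2 start sites, at signals of 11.1, 8.68, 8.59 and 7.42. The strongest, at rank 17770, lies in an intron 240 bp inside the internal start. Replicate 1 gave 5.57 for it and replicate 2 listed no overlapping region. The strongest region near a start was 13.9, rank 6320, in replicate 1 and 5.64, rank 20683, in replicate 2, at different positions. The nearest optimal peak lay 5587 bp from a start of ksr-2. No joint region lay within 500 bp of the start of ksr-1 (WBGene00002239, chromosome X 8275169 to 8283301, plus strand), the paralogue that acts mainly in the soma. The only region listed in ksr-1 was 1 in replicate 2, in an intron, with a signal of 5.37 and rank 22052. Its nearest optimal peak lay 129397 bp from the start site. gap-1 and ksr-1 thus both lacked any joint region from 500 bp upstream to the gene end, as did 80.8% of X-linked genes. Each of the 7 autosomal pathway genes had at least 1 such region, whereas 50.8% of autosomal genes had none. This count covers the whole gene, so a longer gene has more room for a region. The 7 genes are 2862 bp (let-60) to 22280 bp (gap-3) long, and the comparison was not matched for length.

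mek-2 (WBGene00003186, chromosome I 3005403 to 3013448, minus strand), which encodes MEK, had no joint region within 500 bp of its start site. Replicate 1 alone listed one there, at 4.80 and rank 26536, close to the lowest signal of that list. The 3 joint regions inside mek-2 all lie in introns, at 15.6, 13.5 and 10.4, and the nearest optimal peak lay 17059 bp from its start.

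mpk-1 (WBGene00003401, chromosome III 4216763 to 4228108, minus strand) encodes ERK, the kinase at the end of the cascade. Its strongest joint region near a start had a signal of 13.3, rank 13523, 470 bp upstream of the internal start site at 4219643, in an intron of the longer transcripts. Replicate 1 gave 6.56, rank 19188, and replicate 2 listed no region overlapping it. Within 500 bp of any start the strongest replicate 2 region had a signal of 5.88, rank 19582. The other joint region near a start, 336 bp downstream of the start site at 4228094, had a signal of 7.88. The nearest optimal peak lay 2195 bp from a start of mpk-1, at 48.0.

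No E2F core was found in the 300 bases from 250 before to 50 after the outermost start in any of the 9 genes. Of all 19973 promoters of that length 9.20% held one, a share at which 0 of 9 is not unusual. The core of lip-1 lies beyond this window, as does that of lin-45, whose region is at an internal start. A CHR was found in 7 of the 9 promoters (77.8%), against 68.9% of all promoters, and was not found in those of mek-2 and lip-1. Among the 6 genes with a joint region, E2F cores within 100 bp of the strongest summit were found at lip-1 and lin-45, and CHR matches at lip-1, gap-3, lin-45 and let-60.

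The rest of the pathway was read from 3 further lists, which together had promoter peaks at 5 of 37 genes (13.5%) and joint regions near a start at 22 (59.5%), against 11.0% and 35.5% of all genes. A separate list held 15 genes of other MAP kinase cascades, such as JNK and p38. Of these 15 genes, 4 are X-linked and 5 (33.3%) had a joint region near a start, against 35.5% of all genes. Promoter peaks were found at 1 of 14 ligands, receptors and adaptors (7.14%), at 2 of 12 other modulators of RAS and RAF (16.7%), at 2 of 11 targets and downstream factors of MPK-1 (18.2%) and at 0 of the 15 genes of other MAP kinase cascades. All 5 of these peaks were weaker than that of lip-1, and only that of lin-7 was stronger than that of gap-3. A count of 0 of 15 is not unusual at the 11.0% share of all genes, and differences between the lists were not tested.

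lin-7, which encodes a PDZ protein that helps place the EGF receptor LET-23 in vulval cells, had a promoter peak of 144.7, rank 681, with 80.2 in replicate 1 and 61.7 in replicate 2. Its summit lies 298 bp upstream of lin-7 and also within 500 bp of starts of elof-1 and Y54G11A.17, so the peak cannot be given to 1 gene. cnk-1, which encodes a RAF-activating scaffold, had 99.9, with 55.9 in replicate 1 and 45.6 in replicate 2. ral-1, which encodes a RAS-related GTPase, had 88.7 in an intron 487 bp downstream of a start, with 45.5 in replicate 1 and 46.8 in replicate 2. Among MPK-1 targets, dcr-1, which encodes Dicer, had 73.4 (38.7 in replicate 1 and 36.1 in replicate 2), at a summit shared with apc-2. nos-3, which encodes a Nanos-family RNA-binding protein of the germ line, had 67.6 (35.1 in replicate 1 and 24.6 in replicate 2), at a summit shared with Y53C12B.1. E2F cores lay within 100 bp of the summit at lin-7 and ral-1 and were not found at cnk-1, dcr-1 and nos-3.

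Their cores are shown beside that of lip-1, with 10 bases on either side, because they differ in form. Each is read from the WBcel235 genome on the strand of its gene, and capitals mark the core. lip-1 lies at chrIV:6842673-6842699 (plus strand), lin-7 at chrII:14349727-14349753 (minus strand), and the overlapping stretches of ral-1 at chrIII:3311804-3311830 and chrIII:3311817-3311843 (plus strand). lip-1 and the second ral-1 core are the TTCCCGC form read on the opposite strand, and lin-7 and the first ral-1 core are the TTGGCGC form.
lip-1: aatttcaaacGCGGGAAaaaattaatt
lin-7: cgaaacaaaaTTGGCGCgaggaagaca
ral-1, first: taatgagaaaTTGGCGCtgggcggcgg
ral-1, second: gcgctgggcgGCGGGAAtttgaatttt

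Genes of these lists without a promoter peak ranged from none listed to just below the threshold. The EGF-like ligand gene lin-3 had a joint region of 11.7 and the FGF-like ligand gene let-756 one of 10.6. The RasGAP gene gap-2 had no joint region near a start and the scaffold gene soc-2 had one of 7.78. The transcription factor genes lin-1 and lin-31, whose products MPK-1 phosphorylates, had none, nor did the JNK gene jnk-1, while its upstream kinase gene jkk-1 had one of 8.66. The strongest region below the threshold in each list, picked after the values were seen, was 39.8 at egl-17 (an FGF gene), 32.1 at par-5 (a 14-3-3 gene), 31.8 at eor-1 (a zinc finger gene) and 30.6 at dlk-1 (a MAP kinase kinase kinase gene). The region of egl-17, at rank 2827, is nearer to the threshold than that of lin-45, and the regions of par-5, eor-1 and dlk-1 are weaker than that of lin-45.

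**Figure D5:**
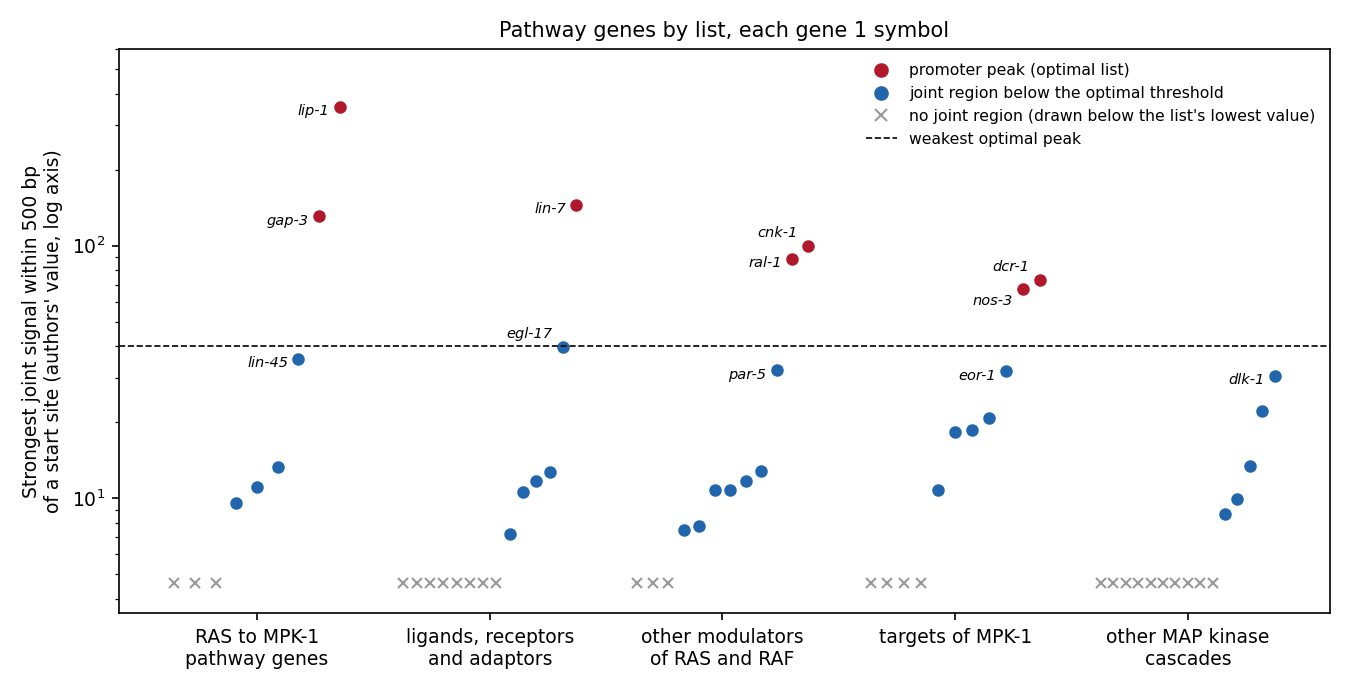
Strongest joint signal within 500 bp of a start site (authors' value, log axis) for every gene of the 9 pathway genes and of the 4 further lists. Red points are promoter peaks, blue points joint regions below the optimal threshold, crosses genes with no joint region, and the dashed line the weakest optimal peak at 40.1. lip-1 at 354 is the highest point, and no gene of the other MAP kinase cascades reaches the dashed line.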

How the data were processed

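Peaks on build ce11 were used with the WBcel235 genome and the Ensembl release 115 annotation, after the files' coordinates were checked against the chromosome lengths. Per the notes deposited beside each sample, the authors called regions in each replicate and in the replicates combined, against 1 control shared by both, and kept as optimal those passing an irreproducible discovery rate (IDR). No aligner, peak caller or IDR cutoff is given in the sources used here. Each region has a signal value, the authors' own deposited number, used only within a list, with both replicates' values given side by side. The −log10 q-value is deposited too, and was the same for all 2825 optimal peaks. Read depth is unknown, so no counting interval is given.

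Each summit was the start of the region plus the deposited offset. Summits were assigned to every gene with 1 of 29784 start sites (all annotated transcripts of protein-coding genes) within 500 bp, in either direction. Replicate values are those of the strongest region overlapping by at least 1 bp. Motifs were searched on both strands within 100 bp of a summit. The assignment and the motif search were tested on simulated data (python 3.11.15, pandas 2.3.3, numpy 2.4.6). With 1 group, no test between groups was possible. The 9 genes, the further lists and the settings were chosen with earlier results of these data known. Beside the 9 genes, named genes are, in each further list, those with a promoter peak (at most 4, strongest first) and the first 2 in list order that lack one, genes starting within 500 bp of a promoter summit of the 9, and their neighbours in rank. Neighbouring genes on the chromosome, and other genes named with a value, were picked after values were seen. Alternatives were the window, the number of regions, the choice of start sites, each replicate alone and the motif window. Start sites of coding transcripts only were added after the data were seen.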

Additional observations from a re-analysis of the deposited data

How the results depend on the processing

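lip-1 and gap-3 were the pathway genes with a promoter peak under windows of 500 and 1000 bp, the strongest 1401 optimal peaks, the nearest or outermost start site, coding transcripts only, and replicate 1 or replicate 2 alone. With a window of 200 bp only 1 of the 9, gap-3, had one, since the lip-1 summit lies 288 bp away; the lip-1 signal then has no value and 0 promoter peaks of the 9 genes held an E2F core. With the strongest 5604 joint regions lin-45 joined them, giving 3. The share of all protein-coding genes with a promoter peak, 11.0% in the main setting, also moved with the setting. It was 5.95% at 200 bp, 13.8% at 1000 bp and 6.51% with the strongest 1401 peaks. With 5604 regions it was 16.8%, and with the nearest start site only 8.77%. Genes that join or drop out below are to be read beside these shares. At 200 bp, 0 ligands, receptors and adaptors, 0 other modulators and 1 target of MPK-1 had a promoter peak. At 1000 bp, 4 other modulators and 1 gene of the other MAP kinase cascades, mpk-2, had one. With the strongest 1401 peaks, 0 targets of MPK-1 had one. With 5604 regions, 2 ligands, receptors and adaptors, 3 other modulators, 3 targets of MPK-1 and 1 gene of the other MAP kinase cascades did. The genes that joined were egl-17, par-5, eor-1 and dlk-1. With the nearest start site only, 0 ligands, receptors and adaptors and 1 target of MPK-1 did. Leaving out replicate 1 gave 1 of the ligands, receptors and adaptors and 3 other modulators, as par-5 joined. The share of all genes was then 10.5%. Leaving out replicate 2 gave 2 ligands, receptors and adaptors, as egl-17 joined, and 2 other modulators, at a share of 10.7%. The signals of lip-1 and gap-3 were read again only under the other windows and choices of start site. Each setting read the same deposited peak, so these values could not change and do not test the signals. No paired analysis was possible because there is 1 group. With read depth unknown, regions below the lowest listed signal could not be seen.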

Other observations

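Regions just past the ends of 4 of the 9 genes were picked after the values were seen and are given as values only. They are not the only ones, as mek-2 had weak joint regions 369 bp and 845 bp past its end, at 8.64 and 8.88. The share of all genes with a region just past their end was not counted. At let-60, an optimal peak with a signal of 45.9, rank 2462, lies 155 bp past the gene end, in a coding exon of ZK792.5 and near its start. It had 25.7 in replicate 1, rank 2679, and 10.2 in replicate 2, rank 8235, above the signal at rank 2802 in replicate 1 and below it in replicate 2. At ksr-2, an optimal peak with a signal of 51.3, rank 2176, lies 572 bp past the gene end, near the start of F58D5.9. It had 22.9 in replicate 1, rank 3089, and 36.1 in replicate 2, rank 1415. Past the end of mpk-1, by 257 bp, a joint region of 33.1, rank 3480, lies in a coding exon of phlp-2, with 15.4 in replicate 1 and 21.8 in replicate 2. Past the end of lin-45, by 137 bp, a joint region of 29.1, rank 4121, lies in a coding exon of smg-7 near its start, with 18.3 in replicate 1 and 16.5 in replicate 2. Within 500 bp of a start the strongest joint signals of these genes were 9.52 at let-60, 11.1 at ksr-2, 13.3 at mpk-1 and 35.7 at lin-45. The genes that follow on the chromosome, ZK792.5, F58D5.9, phlp-2 and smg-7, lie 109, 724, 14 and 94 bp from the ends of let-60, ksr-2, mpk-1 and lin-45. ZK792.5, F58D5.9 and smg-7 lie on the same strand as the pathway gene before them. phlp-2 lies on the strand opposite to mpk-1, and no protein-coding gene starts within 500 bp of the summit there.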
